A study of Mus musculus with 18 samples.

Results

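The fatty acid oxidation genes described here are 42 mouse genes whose products take up, bind and activate fatty acids, move them into mitochondria or peroxisomes, and break them down. They were chosen by symbol, and all 42 were found among the 31787 gene symbols of the deposited raw count table. All 42 also passed the filter on low counts, which kept 21050 genes. By known location, 24 act in mitochondria, 8 in peroxisomes, 3 in both (Crat, Eci2 and Acad11) and 7 at the plasma membrane, at other membranes or in the cytosol.

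The study measured whole-kidney RNA in 18 mouse kidneys in 6 groups of 3, to ask how loss of Twist or Snail from endothelium, genes that drive endothelial-to-mesenchymal transition, or loss of Myc from tubular cells, alters the obstructed kidney. In unilateral ureteral obstruction (UUO) the ureter of 1 kidney is tied off, and that kidney becomes inflamed and scarred. The Twist cKO UUO and Snail cKO UUO kidneys (cKO, conditional knockout) came from Cre-positive mice with floxed Twist or floxed Snail and Cdh5-CreERT2, an inducible Cre of endothelial cells. The Myc cKO UUO kidneys came from Cre-positive mice with floxed Myc and GGT-Cre, which acts in tubular epithelium. Of the 3 WT UUO kidneys, 2 came from Cre-positive mice without floxed alleles and 1 from a Cre-negative mouse with floxed alleles, all of the Cdh5-CreERT2;Twist line, and the contralateral kidneys (the unobstructed kidneys opposite the tie) had the same genotypes. The healthy kidneys came from Cre-negative floxed mice of that line. Twist cKO UUO, WT UUO, contralateral and healthy mice had a background mixed from C57BL6, 129sv and Balb/c, whereas 129sv is not named for the Snail cKO and Myc cKO mice, so strain cannot be told apart from the Snail and Myc knockouts. Mice were 12 weeks old at the end point, or 11 to 12 weeks for Myc cKO. Because RNA came from whole kidney while Cre acted in 1 cell type, the levels hold all cells of the tissue, and no label ties kidneys to animals, so p-values measure only the spread between these samples.

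Long-chain fatty acids enter the cell with the help of Cd36 and fatty acid binding proteins, are joined to coenzyme A, and cross into mitochondria as carnitine esters through the carnitine palmitoyltransferases. Inside, each turn of the beta-oxidation cycle uses an acyl-CoA dehydrogenase, an enoyl-CoA hydratase, a hydroxyacyl-CoA dehydrogenase and a thiolase, and the electrons leave through the electron transfer flavoprotein. Peroxisomes run a parallel cycle on very long and branched chains that begins with an acyl-CoA oxidase. The proximal tubule draws most of its ATP from this pathway, and its enzymes are known targets of the nuclear receptor PPARα and its coactivator PGC-1α.

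The letters before their start sites were compared. A window of 250 bases before the start was found in the RefSeq promoter table (build GRCm38.p6) for 37 of the 42 genes, and 3 are shown for a carnitine-route, a mitochondrial and a peroxisomal enzyme that recur in the results. Capitals mark AGGTCA, the core element of nuclear receptors such as PPARα, or GGGCGG, the GC box bound by Sp1, on either strand. They lie at chr19:3323051-3323300 (plus strand), chr3:153944644-153944893 (minus strand) and chr16:21787835-21788084 (minus strand). For Cpt1a the RefSeq start lies downstream of the gene start in GENCODE M21 (position 3322334), so its window is inside the gene by that annotation.
Cpt1a: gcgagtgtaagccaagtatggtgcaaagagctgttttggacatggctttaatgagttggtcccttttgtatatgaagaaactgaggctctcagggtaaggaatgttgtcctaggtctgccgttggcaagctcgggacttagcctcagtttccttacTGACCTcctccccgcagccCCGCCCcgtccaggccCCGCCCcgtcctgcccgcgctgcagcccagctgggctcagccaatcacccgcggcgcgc
Acadm: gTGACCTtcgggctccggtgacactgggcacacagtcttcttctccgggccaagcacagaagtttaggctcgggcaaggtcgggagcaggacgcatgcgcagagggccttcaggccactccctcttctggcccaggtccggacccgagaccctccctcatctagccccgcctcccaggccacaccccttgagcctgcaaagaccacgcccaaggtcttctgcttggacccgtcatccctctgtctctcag
Ehhadh: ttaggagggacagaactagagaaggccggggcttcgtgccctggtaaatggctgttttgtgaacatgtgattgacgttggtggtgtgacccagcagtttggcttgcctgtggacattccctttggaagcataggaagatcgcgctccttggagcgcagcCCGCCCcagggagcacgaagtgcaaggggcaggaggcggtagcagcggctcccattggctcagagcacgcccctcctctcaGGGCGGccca

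The single element AGGTCA was found for 8 of the 37 genes (21.6%), against 14% of all 32851 windows of the same length. The 8 were Cd36, Fabp1, Acsm1, Acot12, Cpt1a, Acadvl, Acadm and Echs1. GGGCGG was in 23 of the 37 (62.2%), against 32.7% of all windows. The direct repeat of AGGTCA with any single base between the copies, the form PPARα binds with its partner RXR, was in 0 of the 37 and in 0.0335% of all windows, and the E-box CACGTG that Myc binds was in 0 of the 37 and in 6.02% of all windows. Both strands were searched, and the direct repeat holds the single element. A member gene counted if any of its windows held the element, whereas the shares of all windows count each window singly. These counts describe the letters of the windows and nothing else.

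Library totals ranged from 52.6 to 91.3 M counts. Twist1 had 29, 49 and 21 counts in the Twist cKO UUO kidneys, against 180, 360 and 93 in the WT UUO kidneys, and 57 to 138 in the other knockouts. Snai1 had 165, 126 and 191 counts in Snail cKO UUO, against 271, 276 and 196 in WT UUO, but it was as low in Twist cKO UUO (142 to 166) and in Myc cKO UUO (32 to 156). Myc had 1355, 1613 and 722 counts in Myc cKO UUO, against 1869, 1907 and 1782 in WT UUO, and 1284 to 2065 in the other knockouts, which overlapped. In whole kidney the Snai1 and Myc counts therefore do not set their own knockout apart from the others. One library stood apart: Myc cKO UUO replicate 3 had the highest summed level of 20 proximal tubule markers (8670 CPM) and the lowest of 12 fibroblast and myofibroblast markers (912 CPM) among the 12 obstructed kidneys. WT UUO replicate 1 stood at the other end, with 1433 CPM of the proximal tubule markers and 8204 CPM of the fibroblast markers. All levels are CPM, counts scaled to library size with TMM factors, and every fold change is log2 with its SE. Mitochondrial ribosomal RNAs held 19.2% to 20.3% of counts in WT UUO, 46.2% to 49.8% in contralateral and 44.6% to 50.3% in healthy kidneys. TMM factors were 1.35 to 1.37 in WT UUO, 0.621 to 0.680 in contralateral and 0.554 to 0.757 in healthy kidneys. Unscaled, the members held 0.217% to 0.274% of counts in WT UUO and 0.563% to 0.793% in healthy kidneys. The smaller falls, such as those of Hadha, Cpt1a and Acaa1a, rest largely on this scaling. The Y-linked Ddx3y was above Xist, the RNA of the inactive X, in 8 libraries (1 each in Twist cKO UUO, WT UUO, contralateral and healthy, 2 each in Snail cKO UUO and Myc cKO UUO), and Xist was above Ddx3y in the other 10.

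In healthy kidney the members differed widely in level. Per kilobase of exon, Acsm2, which activates medium-chain fatty acids, was the most abundant at 416 ± 292 CPM per kb (SD, n = 3), and Acadm, the medium-chain acyl-CoA dehydrogenase, followed at 194 ± 38.7. Etfb (164 ± 24.5), Acsm1 (164 ± 61.6) and Ehhadh (140.2 ± 18.2) came next in the same unit, and their ranges overlapped with each other. Cpt1a, the liver-type carnitine palmitoyltransferase, stood at 51.8 ± 4.37 CPM per kb, whereas the muscle-type Cpt1b stood at 0.175 ± 0.0611, the lowest of all. Fabp1, the liver-type fatty acid binding protein, and Acad12 were also low, at 3.18 ± 2.87 and 2.72 ± 0.258 CPM per kb. The length joined all annotated exons of a gene, so these values run lower for genes with long alternative transcripts.

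With obstruction nearly the whole set fell. The mean log2 CPM of the 42 genes was 4.42, 4.72 and 4.47 in the WT UUO kidneys, against 6.70, 6.92 and 6.53 in the contralateral and 6.80, 6.96 and 6.60 in the healthy kidneys. Every WT UUO library lay below every unobstructed one, and the group means were 4.54 ± 0.16 in WT UUO, 6.71 ± 0.20 in contralateral and 6.79 ± 0.18 in healthy kidneys (SD, n = 3 each). Called by edgeR's quasi-likelihood test at an adjusted p under 0.05, 41 of the 42 genes fell against healthy kidney and 0 rose, where 27.1% of all 21050 genes tested were called lower and 29.2% higher. The groups did not overlap for 41 members, and for 62.5% of all genes. Against contralateral kidney 40 of 42 fell and 0 rose, where 26% of all genes were called lower and 27.5% higher. The median log2 fold change of the members was -1.998 against healthy, with 0.05 for all genes, and -1.97 against contralateral, with 0.06 for all genes. The member not called in either comparison was Acsm3 (-4.72 ± 2.52, adjusted p = 0.126, against healthy), and Cd36 was not called against contralateral, at -1.77 ± 0.82 (SE, adjusted p = 0.0831). Fewer tubular cells and less RNA per cell cannot be told apart in whole-kidney RNA: the 20 proximal tubule markers, none of which is a member, all fell as well (median -3.64 against healthy), and their summed level was 1433 to 3019 CPM in WT UUO kidneys, 21470 to 27003 in contralateral and 21354 to 24417 in healthy kidneys. Of the loop and distal tubule markers 12 of 13 fell (median -2.52), while 12 of 12 fibroblast markers (median 3.70) and 11 of 11 macrophage markers (median 3.64) rose against healthy. The part of these markers in the fall of the members was not tested.

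**Figure D1:**
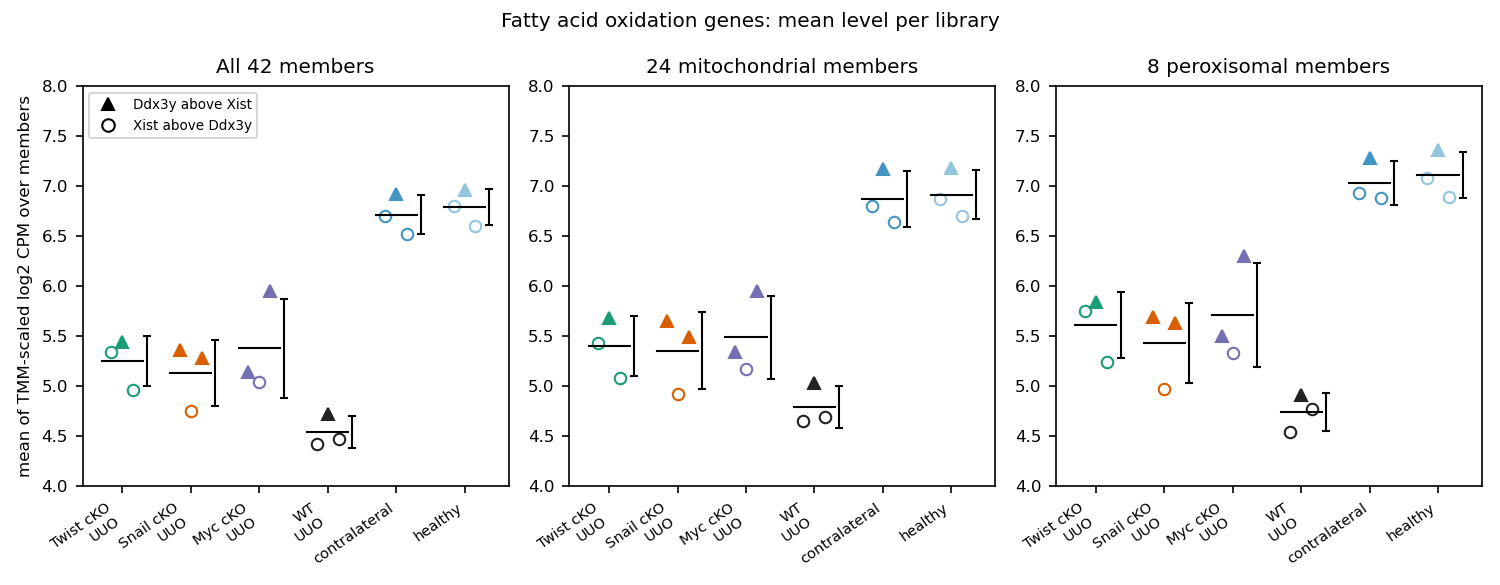
Mean TMM-scaled log2 CPM per library over all 42 members, the 24 mitochondrial and the 8 peroxisomal members (vertical axes), by group (horizontal axes); horizontal lines are group means, bars are 1 SD (n = 3), filled triangles are libraries with Ddx3y above Xist and open circles the others. For all members the knockout libraries sit between 4.75 and 5.95, the WT UUO libraries between 4.42 and 4.72, and the unobstructed libraries between 6.53 and 6.96.

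Uptake and activation genes fell furthest by their medians, -2.93 and -3.70. Fabp3, the heart-type fatty acid binding protein, had 3.43, 4.38 and 6.27 CPM in WT UUO kidneys, against 44.7, 39.2 and 23.6 CPM in healthy kidneys. Its log2 fold change was -2.93 ± 0.40 (adjusted p = 2.07e-05), and the groups did not overlap. Fabp1 fell most on the fitted scale, by 5.13 ± 1.37, but rested on 7, 1 and 4 counts in WT UUO against 167, 11 and 107 counts in healthy kidneys. Cd36 had 57.1, 103 and 24.1 CPM in WT UUO kidneys, against 152, 678 and 158 CPM in healthy kidneys (-2.43 ± 0.84, adjusted p = 0.0235), with a wide spread in both groups and no overlap. Acsm1, on chromosome 7 like Acsm2 and Acsm3, had 7.24, 27.1 and 12.6 CPM in WT UUO kidneys, against 298, 512 and 264 CPM in healthy kidneys. That is a change of -4.51 ± 0.55 (adjusted p = 6.83e-06), and Acsm2 changed by -4.10 ± 0.80 (adjusted p = 0.000488). Acot12, a cytosolic acyl-CoA thioesterase, had 12.0, 17.8 and 12.3 CPM in WT UUO kidneys, against 98.2, 214 and 103 CPM in healthy kidneys, and fell by 3.30 ± 0.54 (adjusted p = 0.000104). Acsl1, the long-chain acyl-CoA synthetase, fell by 1.98 ± 0.44 and was near the middle of the 42. Acot1 fell by 1.81 ± 0.48, and its reads may be split with its near-identical neighbour Acot2, which changed by -0.66 without passing the test (adjusted p = 0.101).

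Transporters and enzymes of the carnitine route fell by less, apart from the carnitine transporter Slc22a5. Slc22a5 had 31.5, 36.9 and 37.5 CPM in WT UUO kidneys, against 249, 227 and 219.8 CPM in healthy kidneys, a change of -2.71 ± 0.23 (adjusted p = 2.44e-07). The gap between the groups was wide and each was tight. Cpt1a, the controlled entry step for long chains, had 161, 159 and 176 CPM in WT UUO against 409.9, 419 and 357 CPM in healthy kidneys, a 2.39-fold lower level (-1.26 ± 0.24, adjusted p = 0.000335). Its raw counts were 13636, 12744 and 14383 in WT UUO and 20147, 20468 and 23047 in healthy kidneys. As shares of raw library totals, the groups overlapped. Cpt2, which reforms the acyl-CoA inside the mitochondrion, fell by 2.02 ± 0.25, and Slc25a20, the carrier between them, by 1.29 ± 0.22. Crat, the carnitine acetyltransferase, had 30.3, 31.0 and 32.7 CPM in WT UUO, against 114, 102 and 90.6 CPM in healthy kidneys (-1.71 ± 0.18, adjusted p = 1.61e-06). The WT UUO values were close to each other and far under the healthy ones, and Crot, the peroxisomal carnitine octanoyltransferase, fell by 2.12 ± 0.44. Cpt1b changed by -1.79 ± 0.45 (adjusted p = 0.00318) at levels of 0.122 to 0.212 CPM in WT UUO and 0.369 to 0.775 CPM in healthy kidneys. Beside Cpt1b and Fabp3, which striated muscle and brown fat express highly, the 9 markers of those tissues summed to 1.72 to 2.67 CPM in WT UUO and 8.37 to 11.8 CPM in healthy kidneys, with Ckm at 0 in the 3 WT UUO libraries and at most 0.0310 CPM in the healthy ones. Their part was not tested.

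Of the acyl-CoA dehydrogenases, the family that opens the mitochondrial cycle, all 8 fell, including Acad11 of both compartments. Acadm had 62.8, 93.0 and 80.2 CPM in WT UUO kidneys, against 875, 813 and 587 CPM in healthy kidneys, so its highest obstructed level was far under its lowest healthy one. That was 9.64-fold lower (-3.27 ± 0.30, adjusted p = 4.81e-07), the largest fall in this class. Acad11 had 35.2, 42.8 and 40.4 CPM in WT UUO, against 273, 284 and 214 CPM in healthy kidneys (-2.70 ± 0.22, adjusted p = 1.87e-07). Acad12 had 6.27, 6.20 and 6.49 CPM in WT UUO, against 17.4, 19.6 and 16.3 CPM in healthy kidneys (-1.49 ± 0.11, adjusted p = 8.2e-08). Neither gene's groups overlapped, and Acad10 fell by 2.13 ± 0.23. The very-long-chain enzyme Acadvl fell by 1.59 ± 0.19, the short-chain Acads by 1.45 ± 0.26, and the long-chain Acadl by 1.09 ± 0.17. Acadsb averaged 56.1 ± 5.86 CPM in WT UUO and 189 ± 10.4 CPM in healthy kidneys (SD, n = 3 each).

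The later steps of the cycle were uneven. Hadha, the hydratase and dehydrogenase subunit of the trifunctional protein, had 115, 99.0 and 109 CPM in WT UUO kidneys, against 245, 172 and 198 CPM in healthy kidneys. This was the smallest fall of all 42 members (-0.93 ± 0.16, adjusted p = 0.000157), and its partner subunit Hadhb, the thiolase of the same complex, fell by 1.62 ± 0.19. The separate medium- and short-chain enzymes fell more. Hadh, the hydroxyacyl-CoA dehydrogenase, had 52.6, 62.5 and 66.4 CPM in WT UUO, against 322, 368 and 262 CPM in healthy kidneys (-2.39 ± 0.22, adjusted p = 5.58e-07). Echs1, the short-chain hydratase, had 38.2, 38.8 and 42.5 CPM in WT UUO, against 167, 166 and 126 CPM in healthy kidneys (-1.94 ± 0.18, adjusted p = 4.64e-07). The groups were well apart for both, and the thiolase Acaa2 fell by 2.71 ± 0.35. The isomerases and reductases for unsaturated chains, Eci1, Eci2, Decr1 and Decr2, fell by 1.26 to 1.66. Eci1 had 17.9, 18.7 and 19.5 CPM in WT UUO, against 62.9, 56.8 and 46.7 CPM in healthy kidneys (-1.57 ± 0.17, adjusted p = 1.83e-06). Decr2 had 17.0, 16.0 and 14.1 CPM in WT UUO, against 50.9, 44.5 and 54.1 CPM in healthy kidneys (-1.66 ± 0.19, adjusted p = 2.98e-06). Both were lower in every WT UUO library than in any healthy one.

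The electron transfer flavoprotein fell in all its parts. Its subunit Etfa had 30.9, 34.1 and 34.5 CPM in WT UUO, against 142, 177 and 132 CPM in healthy kidneys (-2.18 ± 0.15, adjusted p = 5.14e-08). Its subunit Etfb had 30.6, 34.5 and 35.4 CPM in WT UUO, against 194, 218 and 161 CPM in healthy kidneys (-2.51 ± 0.21, adjusted p = 2.46e-07). Neither subunit overlapped between the groups, and Etfdh, which passes their electrons to ubiquinone, fell by 1.65 ± 0.18.

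The peroxisomal cycle held both large and small changes. Ehhadh, the peroxisomal bifunctional enzyme, had 20.9, 39.1 and 26.8 CPM in WT UUO kidneys, against 400.3, 479 and 375 CPM in healthy kidneys, with no overlap. It was 14.4-fold lower (-3.85 ± 0.59, adjusted p = 6.28e-05). Acox2, the branched-chain acyl-CoA oxidase, had 4.41, 10.9 and 11.5 CPM in WT UUO, against 96.1, 129 and 67.2 CPM in healthy kidneys (-3.45 ± 0.39, adjusted p = 3.45e-06). The thiolase Acaa1b had 8.39, 8.52 and 8.25 CPM in WT UUO, against 121, 93.6 and 100.1 CPM in healthy kidneys (-3.64 ± 0.44, adjusted p = 5.79e-06). Hsd17b4, the other bifunctional enzyme, stayed closer, with 81.4, 92.2 and 90.6 CPM in WT UUO, against 223, 225 and 188 CPM in healthy kidneys (-1.27 ± 0.15, adjusted p = 3.63e-06). Acaa1a fell by 1.01 ± 0.14 and Acox3, another oxidase, by 2.13 ± 0.34. Acaa1a and Acaa1b are near-identical copies on chromosome 9, so reads may be split between them.

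**Figure D2:**
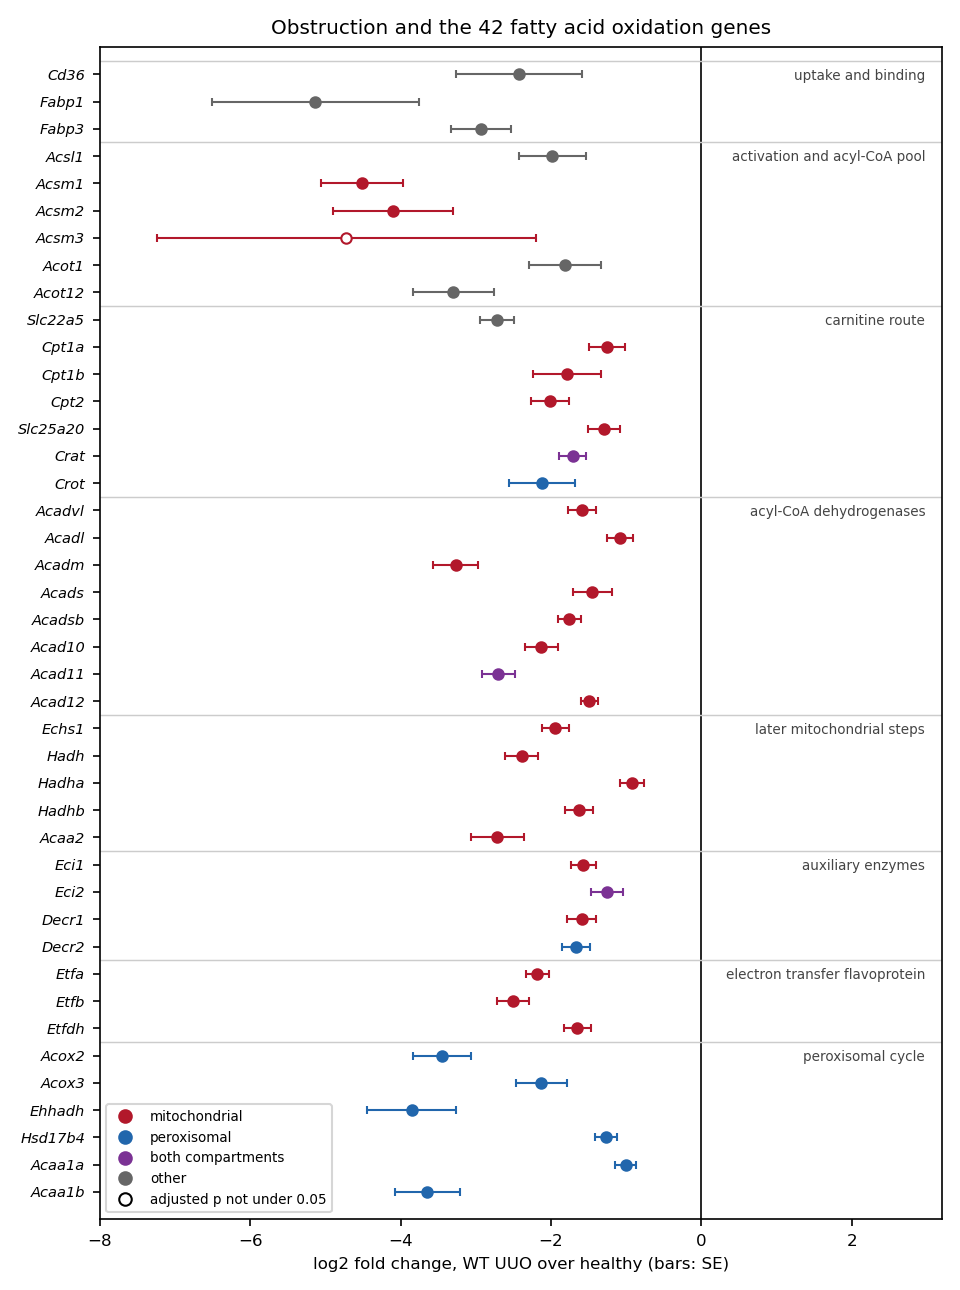
Log2 fold change of WT UUO over healthy kidney for each of the 42 members (points; bars are SE, 3 libraries a group), ordered by role and coloured by compartment, with an open point where the adjusted p was not under 0.05. All points lie left of 0, between -5.13 for Fabp1 and -0.93 for Hadha, and Acsm3 alone is open.

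Taken by compartment, 23 of the 24 mitochondrial genes and 8 of the 8 peroxisomal genes fell against healthy kidney, with medians of -1.77 and -2.12. Against contralateral kidney the medians were -1.89 and -1.90, again with 23 of 24 and 8 of 8 genes called. Within each library, the mean log2 CPM of the mitochondrial genes minus that of the peroxisomal genes lay between -0.35 and -0.04 in the knockouts. In WT UUO kidneys this difference was 0.11, 0.12 and -0.08, in contralateral kidneys between -0.25 and -0.11, and in healthy kidneys between -0.22 and -0.18. The WT UUO values were higher than most others, by an amount small beside the fall of either class.

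No member was called between contralateral and healthy kidney. edgeR called 0 of 42, while 2.26% of all genes were called, and DESeq2 and limma voom also called 0 members. An unadjusted p under 0.05 was reached by 0 members, and by 3664 of all 21050 genes. The median log2 fold change was -0.05, with -0.01 for all genes, and lay between -0.13 and 0.05 when each library was left out in turn. Cpt1a changed by 0.27 ± 0.23 (adjusted p = 0.612), Acadm by -0.22 ± 0.27 (adjusted p = 0.74) and Ehhadh by -0.01 ± 0.53 (adjusted p = 0.995). Acsm3, at -0.47 ± 2.16, was too variable for a difference of that size to be detectable.

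Genes around the pathway, from lists chosen with earlier results known, were followed in the same fit. Of 17 regulators, 12 fell and 2 rose in WT UUO against healthy kidney. Those with the smallest p were Esrra, the estrogen-related receptor that works with PGC-1α (-1.73 ± 0.14), the mitochondrial deacetylase Sirt3 (-2.61 ± 0.24), the AMPK subunit Prkaa2 (-2.34 ± 0.24) and the coactivator Ppargc1b (-1.38 ± 0.15). Chosen after its values were seen, Ppara, the receptor that switches on many of these enzymes, had 15.5, 22.1 and 15.2 CPM in WT UUO, against 120.6, 104 and 133 CPM in healthy kidneys (-2.76 ± 0.36, adjusted p = 1.4e-05). The receptors that rose were Ppard (0.45 ± 0.15) and Pparg (2.27 ± 0.62), and for Pparg 1 WT UUO library stood at 20.03 CPM and the others at 4.87 and 2.64. Of 34 other tested fatty acid oxidation genes, 26 fell and 1 rose, led by Pcca, a subunit of propionyl-CoA carboxylase (-2.37 ± 0.16), and the methylmalonyl-CoA epimerase Mcee (-1.85 ± 0.14). Of 30 other peroxisomal genes, 27 fell and 1 rose, led by Pex7, an import receptor (-1.48 ± 0.11), and the thiolase Scp2 (-2.55 ± 0.19). The list for fatty acid synthesis and storage was split, with 13 of 26 lower and 5 higher. In it the desaturase Fads2 (-1.46 ± 0.15) and Dgat2, which makes triglyceride (-2.67 ± 0.29), fell, and the lipogenic regulator Srebf1 rose (0.88 ± 0.13). Among the others that rose, chosen after their values were seen, were the lipid droplet genes Plin2 (1.16 ± 0.20) and Hilpda (2.25 ± 0.47). The nuclear genes of oxidative phosphorylation and the citric acid cycle fell throughout, 21 of 21 (median -1.91) and 16 of 16 (median -1.85).

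The 3 knockout comparisons below share the WT UUO libraries. In Twist cKO UUO kidneys, 6 of the 42 genes were higher than in WT UUO kidneys and 0 lower, where 2.97% of all genes were called higher and 2.31% lower. All 42 fold changes were positive, with a median of 0.60 and -0.01 for all genes, and the groups did not overlap for 32 members, where 32.6% of all genes did not overlap. The 6 were Slc22a5, Acad11, Hadh, Etfa, Etfb and Acaa1b. Slc22a5 had 71.6, 72.5 and 55.8 CPM in Twist cKO UUO, against 31.5, 36.9 and 37.5 CPM in WT UUO (0.92 ± 0.22, adjusted p = 0.0307). Etfb had 64.5, 74.4 and 49.6 CPM in Twist cKO UUO, against 30.6, 34.5 and 35.4 CPM in WT UUO (0.91 ± 0.20, adjusted p = 0.0273). Acaa1b had 35.7, 39.9 and 14.9 CPM in Twist cKO UUO, against 8.39, 8.52 and 8.25 CPM in WT UUO (1.85 ± 0.41, adjusted p = 0.0265). In each of the 3 genes every Twist cKO library was above every WT UUO library, and replicate 3 was the lowest of the knockouts. Acad11 (0.77 ± 0.21, adjusted p = 0.0464), Hadh (0.82 ± 0.21, adjusted p = 0.0402) and Etfa (0.58 ± 0.15, adjusted p = 0.0359) did not overlap between the groups either. Others narrowly missed the threshold, such as Crat at 0.62 ± 0.18 (adjusted p = 0.0555) and Acox2 at 1.27 ± 0.36 (adjusted p = 0.0565). The count was 0 without WT UUO replicate 1 or 2 or Twist cKO UUO replicate 1 or 2, and 3 without WT UUO replicate 3. Over all genes, leaving out each library in turn gave 13 to 1057 calls. The count of members was 16 with Ddx3y against Xist as a covariate. The calls over all genes in that fit are not given here. The proximal tubule markers were also higher, 11 of 20 genes and 4367 to 7192 CPM summed against 1433 to 3019 CPM, while 5 of 12 fibroblast markers (2087 to 2415 CPM summed against 4191 to 8204 CPM), 4 of 11 macrophage markers and 3 of 12 endothelial markers were lower, and their part was not tested. Of the regulators 5 of 17 were higher, led by Ppargc1b (0.96 ± 0.15, adjusted p = 0.0124), and of the other oxidation genes 7 of 34, led by the transporter Slc22a4 (0.91 ± 0.14, adjusted p = 0.0124).

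In Snail cKO UUO kidneys 1 of the 42 genes was higher than in WT UUO kidneys and 0 lower, where 0.162% of all genes were called higher and 0.138% lower. The gene was Acad12, a member of the acyl-CoA dehydrogenase family, with 10.2, 8.58 and 9.48 CPM in Snail cKO UUO, against 6.27, 6.20 and 6.49 CPM in WT UUO (0.58 ± 0.11, adjusted p = 0.0412). The groups were apart and narrow. At an adjusted p of 0.0667, Acad10 had 33.0, 19.4 and 30.4 CPM in Snail cKO UUO, against 12.8, 16.0 and 12.2 CPM in WT UUO (1.01 ± 0.22). The fold changes were positive for 41 of 42 genes, the exception being Acaa2 at -0.04 ± 0.33, and their median was 0.50, with -0.0046 for all genes. The groups did not overlap for 23 members, and for 24.9% of all genes. Without any 1 of WT UUO replicates 1, 2 and 3 or Snail cKO UUO replicates 1 and 3 the count was 0. It was 3 without Snail cKO UUO replicate 2, which had the lowest mean of the members in its group (4.75, against 5.36 and 5.28). Over all genes the calls in these fits ran from 15 to 141. Of the proximal tubule markers 1 of 20 was higher, and their sums of 3091 to 4919 CPM in Snail cKO UUO did not overlap those of 1433 to 3019 CPM in WT UUO. Of the fibroblast markers 1 of 12 was lower, at 2854 to 3981 CPM in Snail cKO UUO against 4191 to 8204 CPM in WT UUO, with 12 of 12 fold changes negative. The part of these markers was not tested.

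In Myc cKO UUO kidneys 20 of the 42 genes were higher than in WT UUO kidneys and 0 lower, where 5.31% of all genes were called higher and 6.91% lower. All 42 fold changes were positive, with a median of 0.72 and 0.0012 for all genes, and the groups did not overlap for 31 members, where 31.8% of all genes did not overlap. By compartment, 11 of 24 mitochondrial genes (median 0.56) and 5 of 8 peroxisomal genes (median 0.71) were higher. All 3 genes of the electron transfer flavoprotein pathway, Etfa, Etfb and Etfdh, were among the 20. So were 4 of 6 in the peroxisomal cycle and 3 of 8 acyl-CoA dehydrogenases. Outside the set, 13 of 21 nuclear oxidative phosphorylation genes (median 0.66) and 11 of 16 citric acid cycle genes (median 0.60) were higher. These lists had 1 and 3 genes higher in Twist cKO UUO, and 0 and 0 in Snail cKO UUO.

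Slc22a5 had 48.7, 67.5 and 109 CPM in Myc cKO UUO, against 31.5, 36.9 and 37.5 CPM in WT UUO (1.09 ± 0.22, adjusted p = 0.00747). Etfa had 46.6, 51.6 and 64.7 CPM in Myc cKO UUO, against 30.9, 34.1 and 34.5 CPM in WT UUO (0.71 ± 0.15, adjusted p = 0.00808). Ehhadh had 65.5, 59.8 and 269 CPM in Myc cKO UUO, against 20.9, 39.1 and 26.8 CPM in WT UUO (2.18 ± 0.55, adjusted p = 0.0218). In each of the 3 genes the groups did not overlap, and replicate 3 was the highest, by a wide margin for Ehhadh. Acad11 had 56.2, 63.9 and 104 CPM in Myc cKO UUO, against 35.2, 42.8 and 40.4 CPM in WT UUO (0.92 ± 0.21, adjusted p = 0.0129). Etfdh had 77.1, 75.4 and 126 CPM in Myc cKO UUO, against 52.0, 59.4 and 56.1 CPM in WT UUO (0.73 ± 0.18, adjusted p = 0.0171). Acox2 had 26.1, 18.6 and 32.4 CPM in Myc cKO UUO, against 4.41, 10.9 and 11.5 CPM in WT UUO (1.53 ± 0.36, adjusted p = 0.0168). These groups were also apart, and the 2 lower knockout libraries were nearer to WT UUO than replicate 3 was. Acadm had 127, 112 and 207 CPM in Myc cKO UUO, against 62.8, 93.0 and 80.2 CPM in WT UUO (0.92 ± 0.28, adjusted p = 0.0423). Acsl1, which was not called (1.04 ± 0.43, adjusted p = 0.127), had 76.2, 112 and 308 CPM in Myc cKO UUO, against 86.0, 79.0 and 75.6 CPM in WT UUO, with replicate 3 far above the rest. Cpt1a did not pass either, with 147, 189 and 358 CPM in Myc cKO UUO and overlapping WT UUO values (0.48 ± 0.23, adjusted p = 0.191).

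Without Myc cKO UUO replicate 3 the count was 3, the genes Slc22a5, Etfa and Etfb, and the median fold change was 0.40. Without WT UUO replicate 1 the same 3 genes were called, and with Ddx3y against Xist as a covariate the count was 20, with Acads turning to -0.03, or 12 without Myc cKO UUO replicate 3 and 11 without WT UUO replicate 1. No member was called with only the groups compared, and fewer than 20 were with Cre presence as a covariate. Over all genes, 797 to 3025 were called when each library was left out in turn. The calls over all genes in the covariate fits are not given here. Replicate 3 of Myc cKO UUO was also the highest obstructed library for Ppara (74.8 CPM, against 19.0 and 33.7 in its group). Of the proximal tubule markers 14 of 20 were higher, at 4374 to 8670 CPM summed in Myc cKO UUO against 1433 to 3019 CPM in WT UUO. Lower were 6 of 12 fibroblast markers (912 to 3574 CPM summed against 4191 to 8204 CPM), 7 of 12 endothelial markers and 3 of 11 macrophage markers. In the same comparison 8 of the 17 regulators were higher and 1 lower, the higher ones led by Esrrg (0.73 ± 0.15, adjusted p = 0.00923). The part of these genes in the members' values was not tested.

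**Figure D3:**
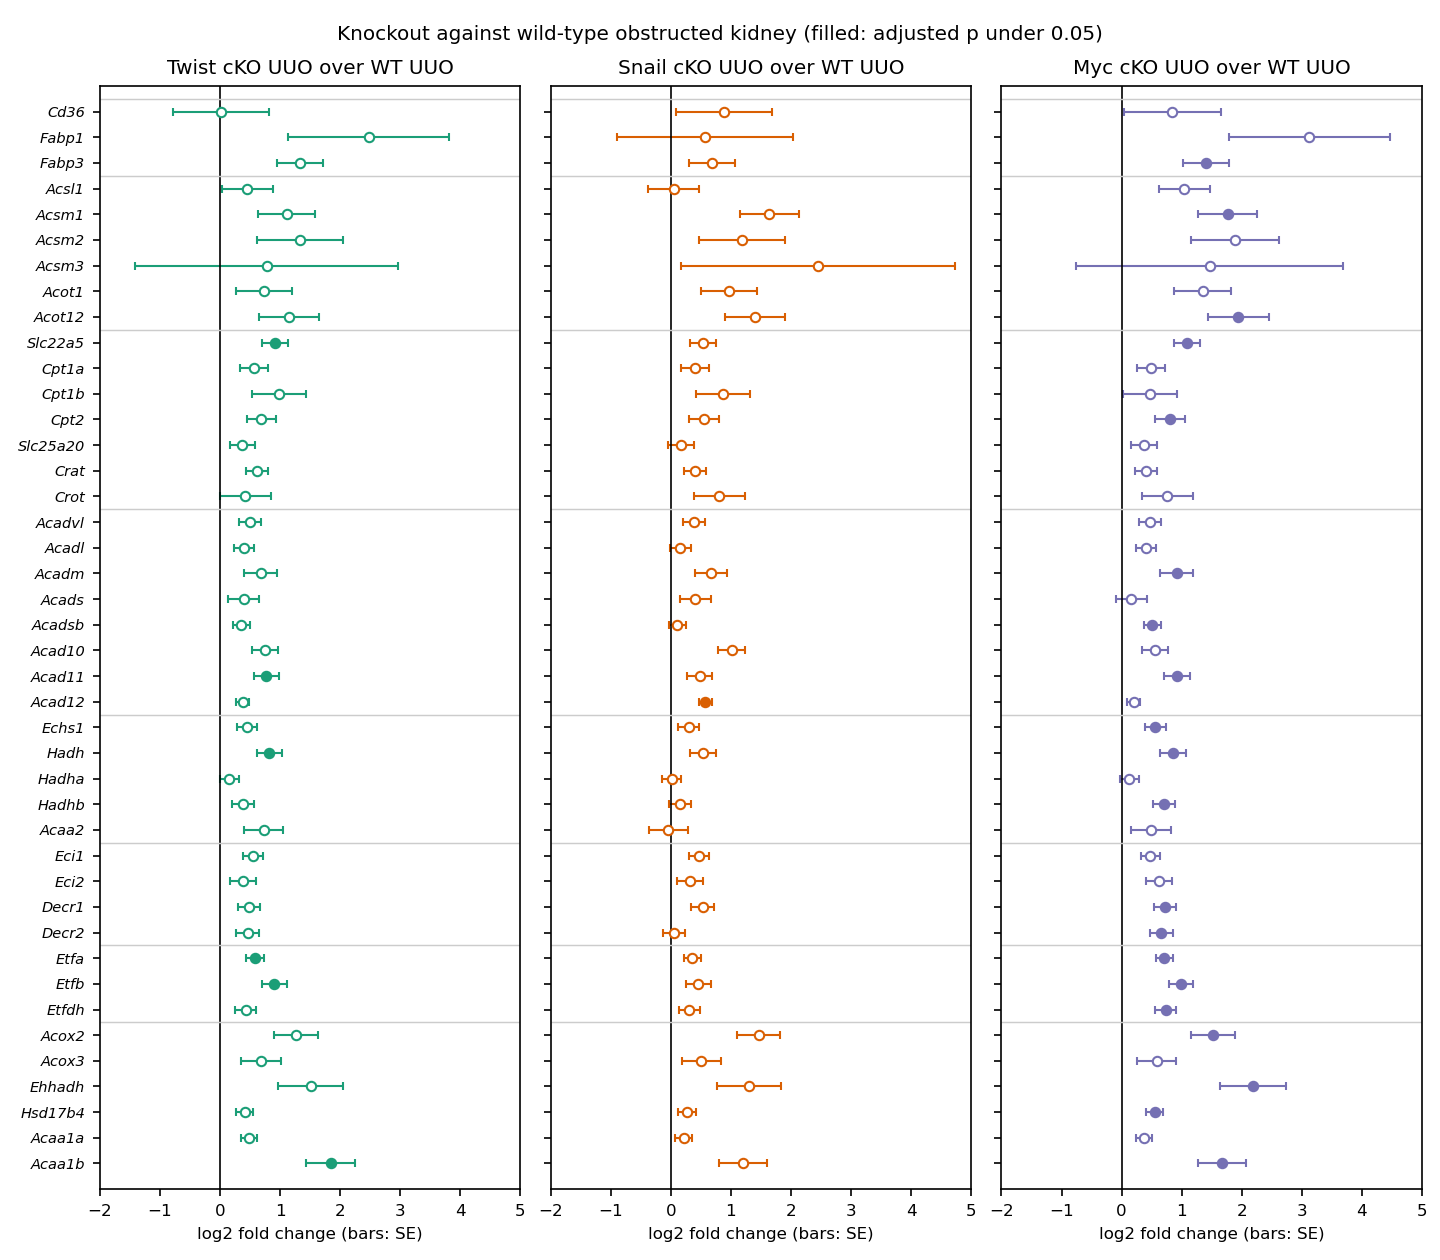
Log2 fold change over WT UUO for each of the 42 members in Twist cKO, Snail cKO and Myc cKO UUO kidneys (points; bars are SE, 3 libraries a group; filled where the adjusted p was under 0.05). Nearly all points lie right of 0, with 6, 1 and 20 filled, and the 3 panels share the WT UUO libraries.

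The mean of the endothelial knockouts against WT UUO called 7 genes higher, Slc22a5, Acad10, Acad12, Etfa, Etfb, Acox2 and Acaa1b, and 0 lower, where 2.59% of all genes were called higher and 2.61% lower, with a median of 0.51. Acox2 changed by 1.36 ± 0.33 (adjusted p = 0.0325) and Acad12 by 0.48 ± 0.10 (adjusted p = 0.0187). Without WT UUO replicate 1 the count was 0, and without Snail cKO UUO replicate 2 it was 11. Over all genes, leaving out each library in turn gave 20 to 1197 calls. Set directly against that mean, the Myc cKO UUO kidneys differed in 0 of 42 genes by edgeR, where 5.05% of all genes were called. At an unadjusted p under 0.05 there were 6 members, and 4190 of all 21050 genes. The median of this difference was 0.20, with 0.02 for all genes, and it turned to -0.095 without Myc cKO UUO replicate 3. Ehhadh stood at 0.78 ± 0.45 (adjusted p = 0.361) and Hadhb at 0.43 ± 0.16 (adjusted p = 0.128).

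The knockouts were still below contralateral kidney. Twist cKO UUO had 36 lower genes (median -1.39), where 21.4% of all genes were called lower. Snail cKO UUO had 38 (median -1.49), where 22.8% were, and Myc cKO UUO had 35 (median -1.31), where 22.5% were. Acadm averaged 126 ± 21.7 CPM for Twist cKO UUO, 125 ± 41.7 for Snail cKO UUO and 149 ± 51.2 for Myc cKO UUO, against 652 ± 131 in contralateral kidneys (SD, n = 3 each). Its changes were -2.37 ± 0.29, -2.38 ± 0.29 and -2.13 ± 0.28. Of the 7 genes not called in Myc cKO UUO, Eci2, the isomerase of both compartments, was nearest to the contralateral level, at -0.25 ± 0.21 (adjusted p = 0.365).

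**Figure D4:**
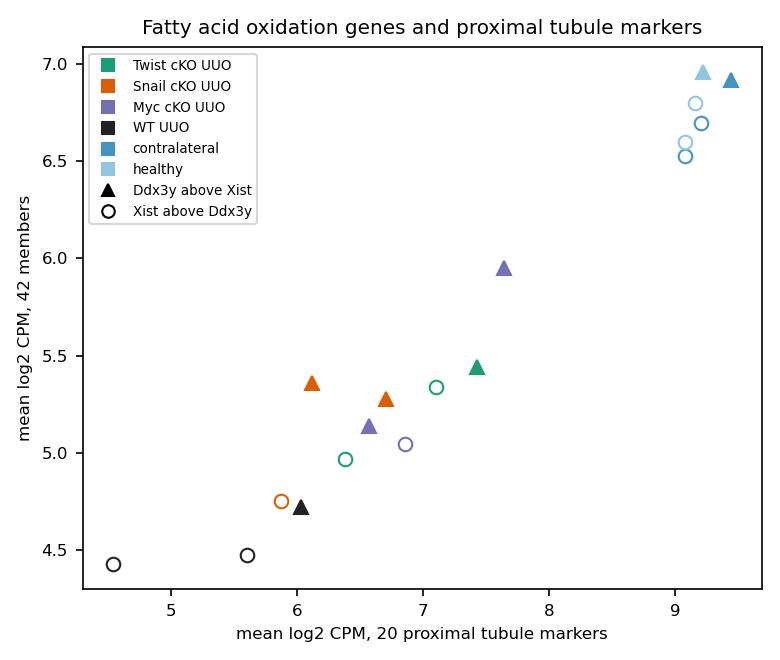
Mean log2 CPM of the 42 members (vertical axis) against mean log2 CPM of 20 proximal tubule markers (horizontal axis) in the 18 libraries, coloured by group, with triangles for libraries with Ddx3y above Xist. All obstructed libraries lie below and to the left of the unobstructed ones. Every knockout library is above every WT UUO library on the vertical axis, while on the horizontal axis the second Snail cKO UUO library (5.87) is left of the second WT UUO library (6.03). Myc cKO UUO replicate 3 is the highest of the knockouts on the vertical axis, at 5.95.

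A few members also differed between the libraries with Ddx3y above Xist and the rest. With group in the fit, 7 of the 42 were higher in the 8 libraries with Ddx3y above Xist and 1 lower, where 3.48% of all genes were called higher and 0.874% lower, and the other 34 were not called. This term was added after seeing the data. Acsm3, a medium-chain acyl-CoA synthetase, was 40.9-fold higher (5.35 ± 0.43, adjusted p = 1.06e-05). It had 507 CPM in the contralateral library with Ddx3y above Xist, against 9.89 and 6.71 CPM in the other contralateral libraries, and 695 CPM in the healthy one, against 12.1 and 19.0 CPM. In Snail cKO UUO it had 121 and 28.9 CPM, against 0.804 CPM, and in WT UUO 25.4 CPM, against 1.57 and 0.501 CPM. In all 6 groups the libraries with Ddx3y above Xist were the highest for Acsm3.

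Cd36, the fatty acid translocase, had 402 CPM in the contralateral library with Ddx3y above Xist, against 116 and 110.0 CPM in the others, and 678 CPM in the healthy one, against 152 and 158 CPM. It was 3.40-fold higher (1.76 ± 0.18, adjusted p = 8.25e-05). Acsm2 (1.43 ± 0.20), Acot12 (0.99 ± 0.18), Crot (0.81 ± 0.15), Acox3 (0.62 ± 0.12) and Acads (0.49 ± 0.09) were higher too, while Fabp1 was lower (-2.60 ± 0.61, adjusted p = 0.0274). Acsm1, next to Acsm2, was not called (0.79 ± 0.22, adjusted p = 0.0685). With this term in the fit, 42 of 42 members fell in WT UUO against healthy and against contralateral kidney. The share of all genes called in that fit is not given here. Without the term, 27.1% and 26% of all genes were called lower. Against healthy kidney the members that fell with the term included Acsm3 (-4.23 ± 0.72, adjusted p = 0.000203) and Cd36 (-2.19 ± 0.30, adjusted p = 2.39e-05). Cd36 is also made by adipocytes, whose 8 markers summed to 47.9 to 201 CPM in WT UUO and 35.4 to 177 CPM in healthy kidneys, with Adipoq between 0 and 18.5 CPM over the 18 libraries. These markers summed to 71.0 to 270 CPM in contralateral and 31.3 to 36.8 CPM in Twist cKO UUO kidneys. In Snail cKO UUO they summed to 33.4 to 148 CPM and in Myc cKO UUO to 31.5 to 189 CPM. Their part in the Cd36 values was not tested.

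**Figure D5:**
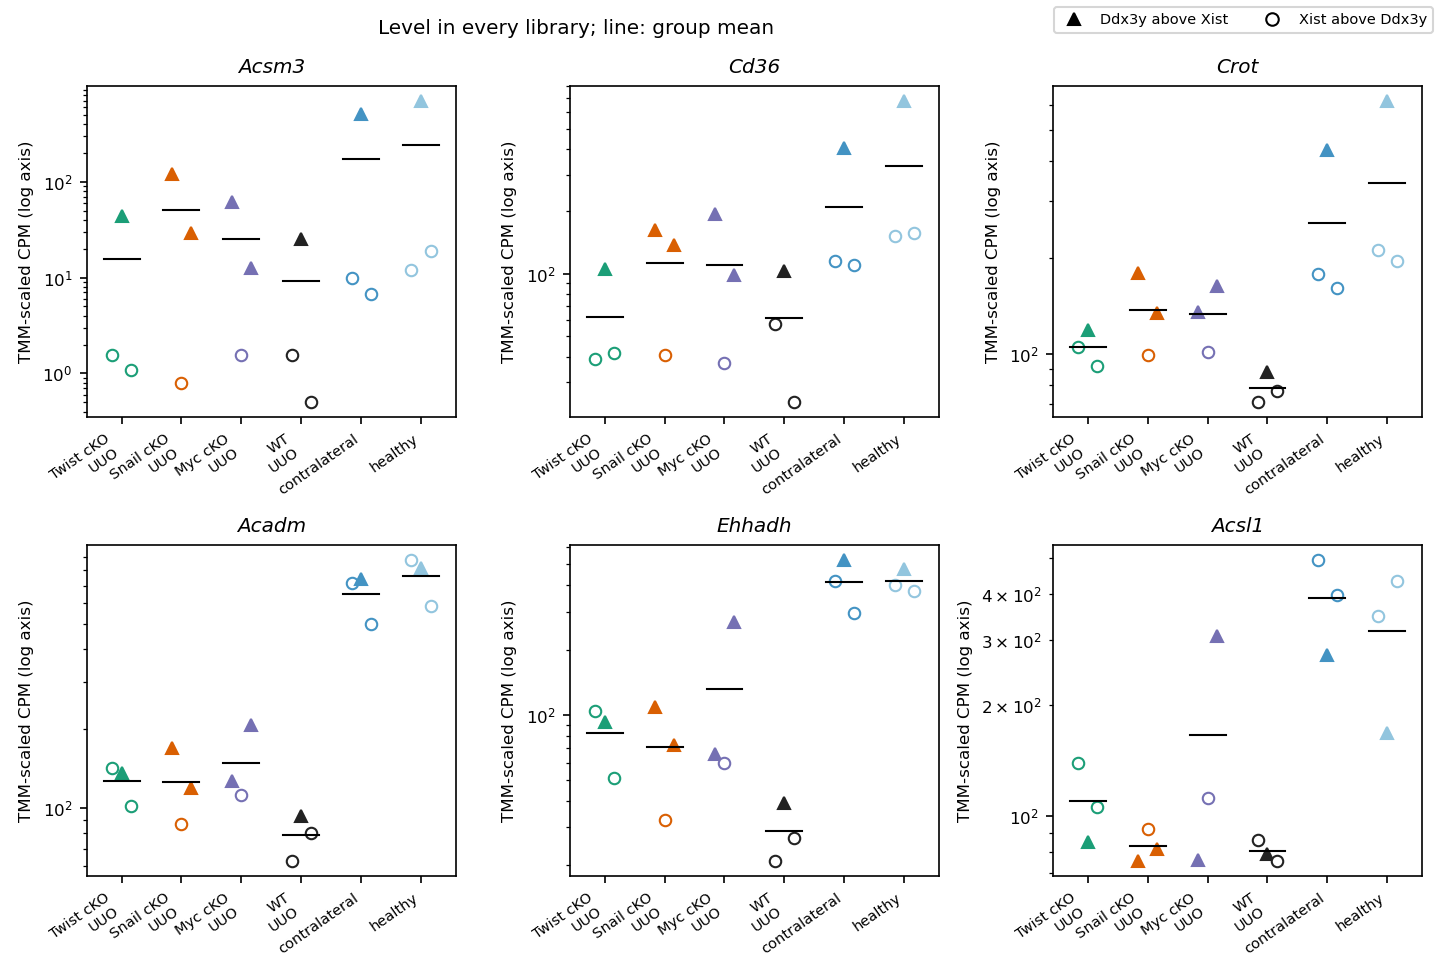
TMM-scaled CPM (log axes) of Acsm3, Cd36, Crot, Acadm, Ehhadh and Acsl1 in each of the 18 libraries by group; lines are group means, filled triangles are libraries with Ddx3y above Xist and open circles the others. The triangles are the highest points of Acsm3, Cd36 and Crot in each group, and Myc cKO UUO replicate 3 is the highest obstructed library for Acadm (207 CPM), Ehhadh (269 CPM) and Acsl1 (308 CPM).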

How the data were processed

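Raw counts per gene symbol were deposited by the authors for whole-kidney RNA extracted with TRIzol and sequenced from stranded whole-transcriptome libraries, per the labels. The build mm10 and the tools bcl2fastq 1.8.4, HTSeq and DESeq2 are listed in the submitters' processing notes. For the aligner, annotation and strand setting the sources used here give no name. The table held 6 columns that matched no sample and were not used.

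The test was edgeR 4.0.16 (R 4.3.3): filterByExpr, TMM scaling and 1 robust quasi-likelihood fit over all 18 libraries with a mean per group (12 residual degrees of freedom), with Benjamini-Hochberg adjustment over the 21050 genes tested. Genes were called at an adjusted p under 0.05, two-sided. Scores over the members carry no p, since the members were chosen with results known; an exact permutation test of 3 libraries against 3 cannot go below 0.1. Module means are means of log2 CPM with a prior count of 2. Exon lengths and positions came from GENCODE M21. Replicates are numbered in accession order. The members, lists and tests were chosen with earlier results of these data known. Named in full were the 2 members of each role with the smallest p in WT UUO against healthy, up to 8 called members per knockout comparison, members not lower after obstruction, Cpt1a, Acadm, Hadha, Ehhadh and Cd36, and up to 4 genes per other list; further genes are named for their role. The fit was also run on simulated data in which few genes changed. That run does not test the scaling where many genes change. Counting precision is not limiting except for Fabp1 and Cpt1b. Alternatives used DESeq2 1.42.0, limma 3.58.1, other scalings, filters and covariates, and each library left out.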

Additional observations from a re-analysis of the deposited data

How the results depend on the processing

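The falls in WT UUO and the absence of calls between contralateral and healthy kidney kept within 1.5 times their counts under every alternative run. Among named members 0 called values changed sign. Small medians did change sign: that of contralateral against healthy was 0.05 without healthy replicate 2 and 0.03 without contralateral replicate 3, against -0.05, and that of Myc cKO against the endothelial mean was -0.095 without Myc cKO UUO replicate 3, against 0.20. The counts against WT UUO moved. For Twist cKO the 6 calls became 12 with a filter of 1 CPM in 3 libraries, 13 with DESeq2, 16 with only the groups compared, 16 with Ddx3y against Xist as a covariate, 1 at a 2-fold minimum, and 3 with that covariate without WT UUO replicate 1. For Snail cKO the 1 call became 5 with DESeq2, 0 with only the groups compared, 0 with Cre presence as a covariate, 2 with Ddx3y against Xist, 0 at a 2-fold minimum, and 0 with Ddx3y against Xist without WT UUO replicate 1. For Myc cKO the 20 calls became 0 with only the groups compared, 13 with Cre presence, 7 at a 2-fold minimum, and, with Ddx3y against Xist, 12 without Myc cKO UUO replicate 3 and 11 without WT UUO replicate 1. For the mean of the endothelial knockouts the 7 calls became 4 with no filter, 18 with DESeq2, 19 with only the groups compared, 4 with Cre presence, 12 with Ddx3y against Xist, 2 at a 2-fold minimum and 1 with Ddx3y against Xist without WT UUO replicate 1. For Myc cKO against that mean the 0 calls became 1 with Ddx3y against Xist and 2, both lower, with it and without Myc cKO UUO replicate 3. Leaving out each library in turn gave 40 to 41 calls for WT UUO against healthy, 40 against contralateral, 0 for contralateral against healthy, 0 to 6 for Twist cKO, 0 to 3 for Snail cKO, 3 to 25 for Myc cKO, 0 to 11 for the endothelial mean, 0 to 1 for Myc cKO against it, and 33 to 35, 34 to 38 and 30 to 37 for Twist, Snail and Myc cKO against contralateral. Over all genes the same fits gave 13 to 1057 calls for Twist cKO and 15 to 141 for Snail cKO. They gave 797 to 3025 for Myc cKO and 20 to 1197 for the endothelial mean. For the other methods, filters and covariates the calls over all genes are not given here. Those member counts alone cannot tell a change of the members from a setting that calls more or fewer genes. The mitochondrial minus peroxisomal median in Snail cKO against WT UUO was -0.22, and -0.048 with Crat, Eci2 and Acad11 counted as peroxisomal. The cause of these moves was not tested, except that only the groups compared and libraries left out leave fewer samples. The combinations of the covariate with a library left out were chosen after seeing the data. No paired analysis was run because the labels carry no replicate numbers and tie no kidney to an animal. WT UUO and contralateral kidneys may come from the same mice, and the fit treated them as separate. Groups of 3 and the Fabp1 and Cpt1b counts limit what could be detected.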

Other observations

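The members were set against other mitochondrial genes within each library. The mean log2 CPM of the 42 members minus that of the 21 nuclear oxidative phosphorylation genes was -1.35 to -1.21 in Twist cKO UUO, -1.62 to -1.05 in Snail cKO UUO, -1.53 to -1.11 in Myc cKO UUO, -1.70 to -1.49 in WT UUO, -1.32 to -1.13 in contralateral and -1.33 to -1.09 in healthy kidneys. Against the 20 proximal tubule markers the same difference was -1.31 to -0.12 in WT UUO, against -2.48 to -2.26 in healthy kidneys, so those markers fell by more than the members.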
